A study of Rattus norvegicus with 25 samples.

Results

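Krt82, Atp13a5, Fgf13 and Bmp3 were selected on their measured signal, because it stood above that of untreated rats in the esophageal epithelium of rats given the carcinogen N-nitrosomethylbenzylamine (NMBA), with or without a tocopherol. They are 4 of 15443 named genes on the array, matched by symbol through the RefSeq accession of each probe, and 4 of the 12343 genes tested. The array carries 5 probes for them, 2 for Fgf13 and 1 for each other gene. Because the choice rested on the differences from Control, those differences are described below without a test, and tests are given only among the groups that received NMBA. Those tests are not free of the choice either, since it favoured genes that stayed above Control with a tocopherol.

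Total RNA of 25 male F344 rats was hybridised to 1-colour Agilent arrays, 1 array per rat. The groups, of 5 rats each, were NMBA+Alpha-T (NMBA plus alpha-tocopherol), NMBA+Delta-T (NMBA plus delta-tocopherol), NMBA+Gamma enriched-T (NMBA plus tocopherol enriched in the gamma form), NMBA (NMBA with a normal diet) and Control (a normal diet and no NMBA). Strain, sex and tissue were common to every group. Dose, route, duration and age were not given in the sources used here, and every rat was sampled once, so how long a difference lasted was not measured. NMBA is a nitrosamine that methylates DNA after metabolic activation and causes tumours of the rat esophagus. Tocopherols are forms of vitamin E, among which alpha-tocopherol carries the most methyl groups on its chromanol ring and delta-tocopherol the fewest.

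The genes belong to unrelated families. Krt82 is a type II hair keratin, a filament protein known from the cuticle of the hair shaft. Atp13a5 is a P5-type ATPase, a membrane pump whose relatives Atp13a2, Atp13a3 and Atp13a4 carry polyamines. Fgf13 is a fibroblast growth factor homologous factor, which stays inside the cell, binds voltage-gated sodium channels and microtubules, and is not secreted like the true FGF ligands. Bmp3 is a secreted member of the bone morphogenetic protein (BMP) family that opposes the signalling of other BMPs. BMP ligands act through paired receptors and Smad proteins, are held back by secreted inhibitors, and take part in the differentiation of the esophageal lining, a stratified squamous epithelium.

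The sequences before the annotated starts of the 4 genes are shown because the genes were chosen together for a level above Control. They allow the starts to be set side by side. They come from RefSeq on the GRCr8 assembly, 5′ to 3′ on the gene's strand, and all 4 genes matched by symbol. Capitals mark matches to the motifs named below.
Krt82: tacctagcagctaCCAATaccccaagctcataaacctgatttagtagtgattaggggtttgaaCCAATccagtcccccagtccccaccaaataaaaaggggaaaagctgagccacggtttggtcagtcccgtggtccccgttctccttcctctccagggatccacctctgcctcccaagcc
Atp13a5: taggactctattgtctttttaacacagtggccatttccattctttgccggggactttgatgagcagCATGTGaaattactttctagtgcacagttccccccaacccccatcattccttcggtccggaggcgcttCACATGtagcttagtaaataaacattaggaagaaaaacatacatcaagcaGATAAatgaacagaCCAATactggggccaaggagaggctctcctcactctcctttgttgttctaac
Fgf13: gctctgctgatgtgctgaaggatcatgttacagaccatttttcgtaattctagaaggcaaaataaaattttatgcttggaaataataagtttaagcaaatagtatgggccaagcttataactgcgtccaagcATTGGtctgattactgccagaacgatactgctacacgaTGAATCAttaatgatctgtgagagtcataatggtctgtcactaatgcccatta
Bmp3: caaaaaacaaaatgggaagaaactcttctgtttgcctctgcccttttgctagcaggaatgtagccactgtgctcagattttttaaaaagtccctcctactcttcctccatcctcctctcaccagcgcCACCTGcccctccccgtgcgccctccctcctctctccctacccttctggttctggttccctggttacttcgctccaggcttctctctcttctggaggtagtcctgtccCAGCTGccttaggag
The Krt82 stretch covers chr7:134554157-134554337 on the minus strand and ends 69 bases before the start. The Atp13a5 stretch covers chr11:84880980-84881229 on the plus strand and runs up to the start. The Fgf13 stretch covers chrX:142423564-142423786 on the minus strand and ends 27 bases before the start, and the Bmp3 stretch covers chr14:11041283-11041532 on the minus strand and runs up to the start. For Krt82 and Fgf13 the bases nearest the start are not shown, because they hold an ATG whose reading frame meets no stop over 119 and 77 bases, up to the end of the RefSeq window 50 bases past the start. Fgf13 has several RefSeq transcripts, and the window lies before 1 of their starts.

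Matches were sought on both strands over 250 bases before the start of 33469 rat promoters. The CCAAT box (CCAAT) was found in 34% of them, and Krt82 held 2 matches, Atp13a5 1 and Fgf13 1. A loose form of the AP-1 site (TGANTCA, N being any base), present in 6.34% of promoters, lay 80 bases before the Fgf13 start. The Fgf13 match has A in the middle, where the strict AP-1 site has C or G. E boxes (CANNTG), present in 65.5%, were found 2 times each before Krt82, Atp13a5 and Bmp3, and the Krt82 matches lie 51 and 40 bases before the start in the stretch not shown. A GATA site (GATAA), present in 23.5%, lay before Atp13a5. The TATA box (TATAAA, 12.9%), the GC box (GGGCGG, 30.5%), the cAMP response element (TGACGTCA, 1.59%), the dioxin response element core (GCGTG, 25.9%) and the interferon-gamma activation site (TTCNNNGAA, 7.67%) matched none of the 4 windows. No motif matched all 4 windows, and no matches overlapped each other.

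Levels are log2 processed signal minus the array's own 75th percentile, so 0 is the signal at that percentile and a difference of 1 is a 2-fold difference in signal. Levels of different probes are not compared. Between 70.6% and 79.8% of the spots of an array were well above background, the 75th percentile ran from 3088 to 8096 fluorescence units, and 0 spots were saturated. The arrays lay on 4 slides. Slide 1 held NMBA+Alpha-T rats 1 to 5 and NMBA+Delta-T rats 1 to 3, and slide 2 held NMBA+Delta-T rats 4 and 5, all NMBA+Gamma enriched-T rats and Control rat 1. Slide 3 held NMBA rats 1 to 4 and Control rats 2 to 5, and slide 4 held NMBA rat 5. No slide held both a rat given a tocopherol and a rat given NMBA alone.

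Krt82 was well above background in 20 of 20 rats given NMBA and in 0 of 5 Control rats. Its log2 level in NMBA+Alpha-T rats 1 to 5 was −4.11, −5.26, −4.27, −4.42 and −5.44, and in NMBA+Delta-T rats −4.68, −5.41, −5.48, −4.01 and −3.97. In NMBA+Gamma enriched-T rats it was −4.72, −5.15, −4.05, −3.76 and −4.68, in NMBA rats −5.04, −4.54, −4.09, −5.00 and −3.54, and in Control rats −8.46, −7.85, −8.49, −7.66 and −7.96. The lowest rat given NMBA stood 2.18 log2 units above the highest Control rat, and the groups given NMBA overlapped each other throughout. Within NMBA+Delta-T, both rats on slide 2 stood above the 3 rats on slide 1.

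Group means of Krt82 were −4.70 ± 0.61 in NMBA+Alpha-T, −4.71 ± 0.73 in NMBA+Delta-T, −4.47 ± 0.56 in NMBA+Gamma enriched-T, −4.44 ± 0.64 in NMBA and −8.09 ± 0.37 in Control (SD, n = 5 each). From the top, the order was NMBA, NMBA+Gamma enriched-T, NMBA+Alpha-T, NMBA+Delta-T and Control, and no neighbours among the first 4 differed by more than their SD. Since no Control array was well above background, the fold is a lower bound, set for each Control array at its dimmest signal still well above background. With the scanner's own background subtraction, Krt82 was at least 3.91-fold higher in NMBA+Alpha-T, at least 3.88-fold in NMBA+Delta-T, at least 4.58-fold in NMBA+Gamma enriched-T and at least 4.67-fold in NMBA, each over Control. These bounds hold for that correction only, since with normexp background correction (offset 50) the log2 differences were 1.28, 1.23, 1.27 and 1.41 in the same order, below each bound.

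Atp13a5 was well above background in 20 of 20 rats given NMBA and in 2 of 5 Control rats. Its log2 level was −4.16, −5.53, −4.45, −4.26 and −4.50 in NMBA+Alpha-T rats and −4.62, −4.63, −4.43, −4.54 and −4.81 in NMBA+Delta-T rats. It was −4.63, −4.29, −4.22, −4.34 and −5.04 in NMBA+Gamma enriched-T rats, −4.13, −3.61, −4.54, −4.37 and −3.60 in NMBA rats, and −6.48, −7.67, −6.05, −7.49 and −6.41 in Control rats. All 20 rats given NMBA stood above all 5 Control rats, with NMBA+Alpha-T rat 2 the nearest to them, 0.52 log2 units above the highest Control rat. The NMBA+Delta-T rats lay closest together and the Control rats farthest apart.

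The mean level of Atp13a5 was −4.58 ± 0.55 in NMBA+Alpha-T, −4.61 ± 0.14 in NMBA+Delta-T, −4.50 ± 0.34 in NMBA+Gamma enriched-T, −4.05 ± 0.43 in NMBA and −6.82 ± 0.71 in Control (SD, n = 5 each). NMBA came first, NMBA+Gamma enriched-T second, then NMBA+Alpha-T, NMBA+Delta-T and Control, and the step between the first and the second, 0.46, was slightly larger than the SD of either. The other steps among the groups given NMBA were smaller than their SD. Over Control, the difference in log2 level was 2.24 in NMBA+Alpha-T, 2.21 in NMBA+Delta-T, 2.31 in NMBA+Gamma enriched-T and 2.77 in NMBA (SE 0.29 each). As folds these were 4.72, 4.63, 4.97 and 6.82 in the same order. Their size is uncertain, since 3 of 5 Control arrays were not well above background, and with normexp the log2 differences were 1.14, 1.07, 1.04 and 1.44.

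Fgf13 differed from the first pair of genes in being well above background on all 25 arrays. Its brighter probe, printed in 10 spots per array and used for the fit, read −3.02, −3.01, −2.99, −2.62 and −2.61 in NMBA+Alpha-T rats and −2.99, −3.13, −2.71, −2.56 and −2.72 in NMBA+Delta-T rats. It read −2.82, −2.70, −3.13, −2.62 and −3.42 in NMBA+Gamma enriched-T rats, −3.01, −2.99, −3.33, −2.81 and −2.66 in NMBA rats, and −5.88, −4.26, −5.21, −3.95 and −4.41 in Control rats. All rats given NMBA stood above every Control rat, by at least 0.53 log2 units. The Control rats spread over more of the scale than the 20 rats given NMBA together, with Control rat 1, the only Control array on slide 2, at the bottom.

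Fgf13 averaged −2.85 ± 0.22 in NMBA+Alpha-T, −2.82 ± 0.23 in NMBA+Delta-T, −2.94 ± 0.33 in NMBA+Gamma enriched-T, −2.96 ± 0.25 in NMBA and −4.74 ± 0.79 in Control (SD, n = 5 each). The order ran NMBA+Delta-T, NMBA+Alpha-T, NMBA+Gamma enriched-T, NMBA, Control, and the first 4 lay within 0.14 log2 units, less than the SD of any group. Over Control, the log2 difference was 1.89 in NMBA+Alpha-T, 1.92 in NMBA+Delta-T, 1.80 in NMBA+Gamma enriched-T and 1.78 in NMBA (SE 0.26 each), or 3.72-, 3.78-, 3.49- and 3.43-fold.

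The second Fgf13 probe also had a higher mean in each group given NMBA than in Control, with more overlap. It read −4.46, −3.83, −3.97, −4.09 and −2.98 in NMBA+Alpha-T rats, −3.54, −4.80, −4.17, −3.59 and −3.94 in NMBA+Delta-T rats and −3.56, −3.63, −4.13, −3.28 and −3.74 in NMBA+Gamma enriched-T rats. In NMBA rats it read −4.10, −3.86, −4.28, −4.03 and −3.73, and in Control rats −6.59, −5.20, −6.00, −4.48 and −5.07. Here 1 of the 20 rats given NMBA, NMBA+Delta-T rat 2, lay below the highest Control rat. The log2 difference from Control on this probe was 1.60 in NMBA+Alpha-T, 1.46 in NMBA+Delta-T, 1.80 in NMBA+Gamma enriched-T and 1.47 in NMBA (SE 0.32 each). The probes ordered the groups given NMBA differently. On the second, NMBA+Gamma enriched-T was highest at −3.67 ± 0.31 and NMBA+Delta-T lowest of them at −4.01 ± 0.51 (SD, n = 5 each). Across the 25 rats the probes had a Pearson r of 0.91, and of 0.49 across the 20 rats given NMBA.

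Bmp3 met the description least. It was well above background in 20 of 20 rats given NMBA and in 3 of 5 Control rats, but 4 of the 20 lay at or below the highest Control rat. Its log2 level was −5.49, −4.77, −5.11, −4.14 and −5.65 in NMBA+Alpha-T rats and −6.75, −6.09, −5.47, −5.83 and −6.28 in NMBA+Delta-T rats. It was −6.25, −5.81, −6.29, −5.84 and −5.59 in NMBA+Gamma enriched-T rats, −5.25, −5.56, −5.86, −5.36 and −4.89 in NMBA rats, and −6.23, −6.81, −7.37, −8.13 and −7.20 in Control rats. The overlapping rats were NMBA+Delta-T rats 1 and 5 and NMBA+Gamma enriched-T rats 1 and 3, all against Control rat 1, while NMBA+Alpha-T and NMBA did not overlap Control, as 2.46% and 2.51% of all genes tested stood higher without overlap in these comparisons.

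Bmp3 means were −5.03 ± 0.61 in NMBA+Alpha-T, −6.08 ± 0.48 in NMBA+Delta-T, −5.96 ± 0.30 in NMBA+Gamma enriched-T, −5.38 ± 0.36 in NMBA and −7.15 ± 0.71 in Control (SD, n = 5 each). The order was NMBA+Alpha-T, NMBA, NMBA+Gamma enriched-T, NMBA+Delta-T and Control. NMBA+Alpha-T and NMBA differed by less than the SD of NMBA, as NMBA+Gamma enriched-T and NMBA+Delta-T differed by less than the SD of either. Over Control, the difference in log2 level was 2.12 in NMBA+Alpha-T, 1.07 in NMBA+Delta-T, 1.19 in NMBA+Gamma enriched-T and 1.77 in NMBA (SE 0.31 each). The folds were 4.34, 2.09, 2.28 and 3.40, and with normexp the log2 differences were 0.93, 0.34, 0.31 and 0.75.

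**Figure D1:**
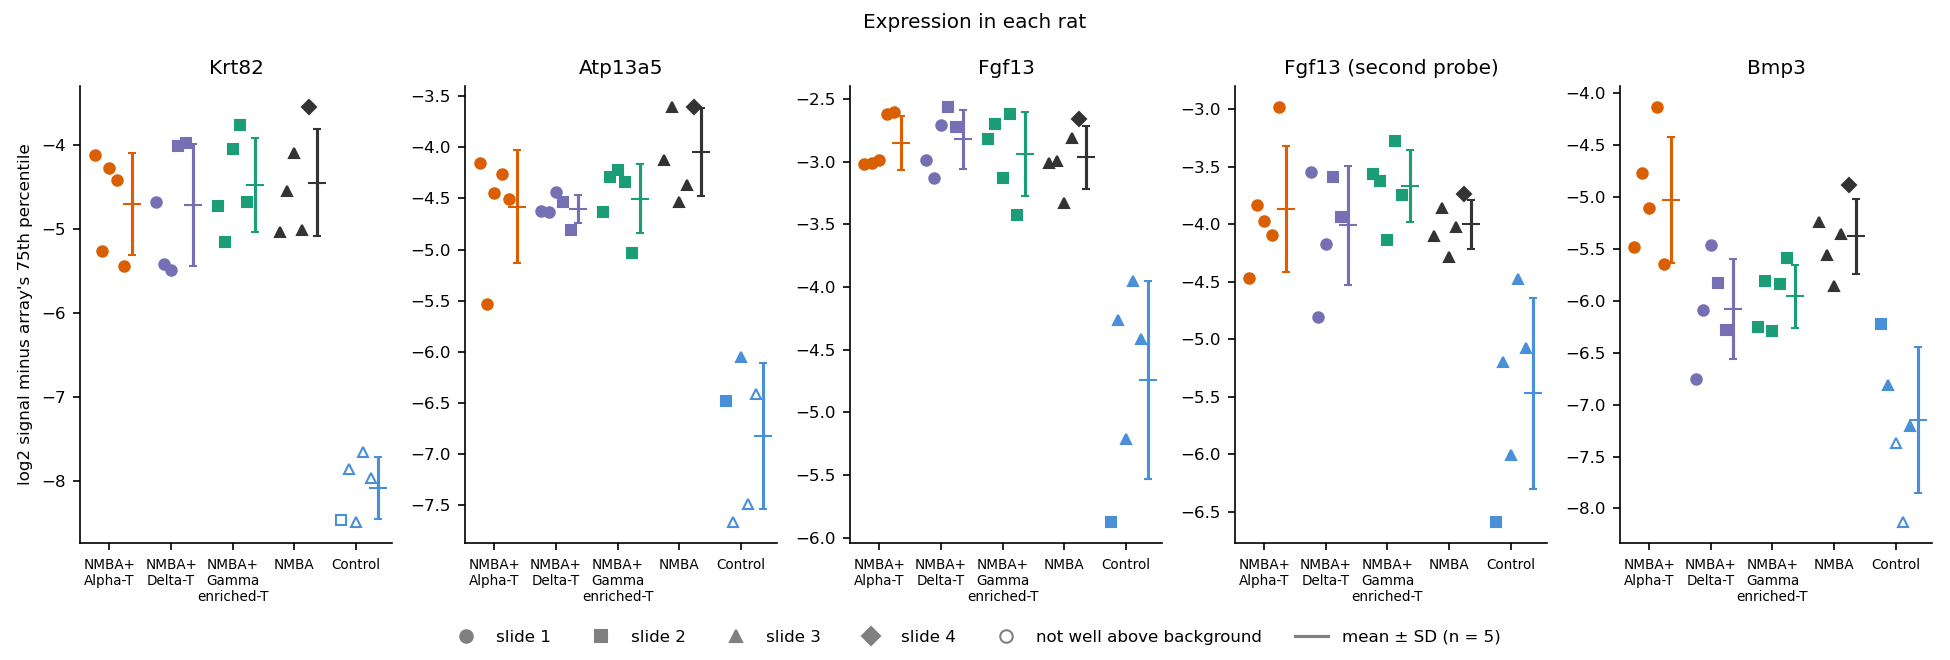
Level of each probe in each rat (y axis, log2 signal minus the array's 75th percentile) by group (x axis), with marker shape for the slide, open markers for arrays not well above background, and bars for mean ± SD (n = 5). For Krt82, Atp13a5 and the first Fgf13 probe all 20 rats given NMBA lie above the 5 Control rats, whereas 1 rat overlaps for the second Fgf13 probe and 4 rats overlap for Bmp3.

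Over all 12343 genes tested, 19 genes (0.154%) had all 20 rats given NMBA above all 5 Control rats, and Krt82, Atp13a5 and Fgf13 were among them. This is the pattern the genes were chosen for, so nothing is read from the count. Ordered by the gap between the lowest rat given NMBA and the highest Control rat, Gip came first at 3.02 log2 units and Krt82 second at 2.18, followed by Fgf13 at 0.53 and Atp13a5 at 0.52. Mat1a lay just below these at 0.40, and the smallest gap of the 19 was 0.0013, for Mthfd1. Krt82 was well above background on 0 and Gip on 2 of 5 Control arrays, so the sizes of their gaps are uncertain.

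The plot of levels by rat is read together with the only slide that held several rats of NMBA and of Control. Within slide 3, the 4 NMBA rats exceeded the 4 Control rats in log2 level by 2.74 for Atp13a5, 1.42 for Fgf13 and 1.87 for Bmp3, and all 4 stood above all 4 for Krt82. In all 4 groups given NMBA the direction of the 4 genes was the same with either background correction, and the size of the difference was not.

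Whether a tocopherol given with NMBA moved the 4 genes away from their level with NMBA alone was tested with limma over all genes. No difference of a tocopherol group from NMBA passed the adjusted threshold of 0.05 for any of the 4 genes. The choice favoured this outcome, because a gene that a tocopherol returned to Control would not have been picked. It is therefore not read as a result about tocopherols, nor against the shares of all genes that follow. For comparison, 3.82% of all genes tested passed for NMBA+Alpha-T, 2.49% for NMBA+Delta-T and 8.95% for NMBA+Gamma enriched-T, each against NMBA. The median difference of all genes was −0.03, −0.05 and −0.10 in these comparisons. A difference that did not pass is not shown to be absent, and the 95% intervals below give the sizes that the data leave possible. The comparisons share the NMBA rats and are therefore given side by side.

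The Krt82 means of the tocopherol groups lay close to that of NMBA. The Krt82 log2 difference from NMBA was −0.26 in NMBA+Alpha-T (95% interval −0.99 to 0.48, adjusted p = 0.768) and −0.27 in NMBA+Delta-T (−1.002 to 0.470, adjusted p = 0.725). In NMBA+Gamma enriched-T it was −0.03 (−0.76 to 0.71, adjusted p = 0.972).

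Atp13a5 had the lower mean in each tocopherol group. The log2 difference from NMBA was −0.53 in NMBA+Alpha-T (−1.13 to 0.07, adjusted p = 0.335), −0.56 in NMBA+Delta-T (−1.15 to 0.04, adjusted p = 0.285) and −0.46 in NMBA+Gamma enriched-T (−1.05 to 0.14, adjusted p = 0.323). Each of the 3 intervals includes 0 by a narrow margin.

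Fgf13 showed the smallest differences. They were 0.11 in NMBA+Alpha-T (−0.42 to 0.65, adjusted p = 0.863), 0.14 in NMBA+Delta-T (−0.39 to 0.68, adjusted p = 0.811) and 0.03 in NMBA+Gamma enriched-T (−0.51 to 0.56, adjusted p = 0.963), in log2 level against NMBA. On the second probe they were 0.13, −0.01 and 0.33, in the same order.

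Bmp3 ran in both directions. Its log2 difference from NMBA was 0.35 in NMBA+Alpha-T (−0.29 to 0.99, adjusted p = 0.602), −0.70 in NMBA+Delta-T (−1.34 to −0.06, adjusted p = 0.204) and −0.57 in NMBA+Gamma enriched-T (−1.22 to 0.07, adjusted p = 0.245). The interval for NMBA+Delta-T leaves out 0 before adjustment, and the difference did not pass after it.

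Among the tocopherol forms, 3 pairs were compared for each gene. The largest differences were those of Bmp3, by −1.05 for NMBA+Delta-T against NMBA+Alpha-T (95% interval −1.69 to −0.41, limma adjusted p = 0.874, unadjusted p = 0.00249). For NMBA+Gamma enriched-T against NMBA+Alpha-T the Bmp3 difference was −0.93 (−1.57 to −0.28, limma adjusted p = 0.156, unadjusted p = 0.0066). All 5 NMBA+Delta-T rats except rat 3 lay below the lowest NMBA+Alpha-T rat, as did all NMBA+Gamma enriched-T rats except rat 5. Within slide 1, where NMBA+Alpha-T and 3 NMBA+Delta-T rats lay together, the difference was −1.07. Neither passed the adjusted threshold. Over all genes, 0 were called for NMBA+Delta-T against NMBA+Alpha-T, a share of 0%, with 571 genes at an unadjusted p under 0.05, and 1.62% were called for NMBA+Gamma enriched-T against NMBA+Alpha-T.

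The other pairs were closer. Bmp3 differed by 0.13 between NMBA+Gamma enriched-T and NMBA+Delta-T (−0.52 to 0.77, adjusted p = 0.960), a comparison in which 0 genes were called, a share of 0%, with 503 at an unadjusted p under 0.05. Krt82 differed by −0.01 for NMBA+Delta-T against NMBA+Alpha-T (−0.75 to 0.73), by 0.23 for NMBA+Gamma enriched-T against NMBA+Alpha-T (−0.51 to 0.96) and by 0.24 for NMBA+Gamma enriched-T against NMBA+Delta-T (−0.50 to 0.97). For Atp13a5 the same 3 differences were −0.03 (−0.62 to 0.57), 0.08 (−0.52 to 0.67) and 0.10 (−0.49 to 0.70). For Fgf13 they were 0.03 (−0.51 to 0.56), −0.09 (−0.62 to 0.45) and −0.11 (−0.65 to 0.42). Of these 9 differences of Krt82, Atp13a5 and Fgf13, the lowest adjusted p was 0.769.

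The comparisons of tocopherol groups with NMBA alone depend on how slides are handled. With slide as a fixed block, only Control rat 1 ties slides 1 and 2 to slide 3, and its levels, low for Krt82 and Fgf13 and high for Bmp3 among Control rats, enter every such difference. The Krt82 differences from NMBA were then 1.64 in NMBA+Alpha-T, 1.15 in NMBA+Delta-T and 0.67 in NMBA+Gamma enriched-T, and those of Fgf13 were 1.91, 1.81 and 1.52. For Atp13a5 they were −0.95, −0.93 and −0.77, and for Bmp3 −0.63, −1.70 and −1.60. None passed the adjusted threshold, and slide and tocopherol treatment cannot be told apart beyond that 1 array.

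**Figure D2:**
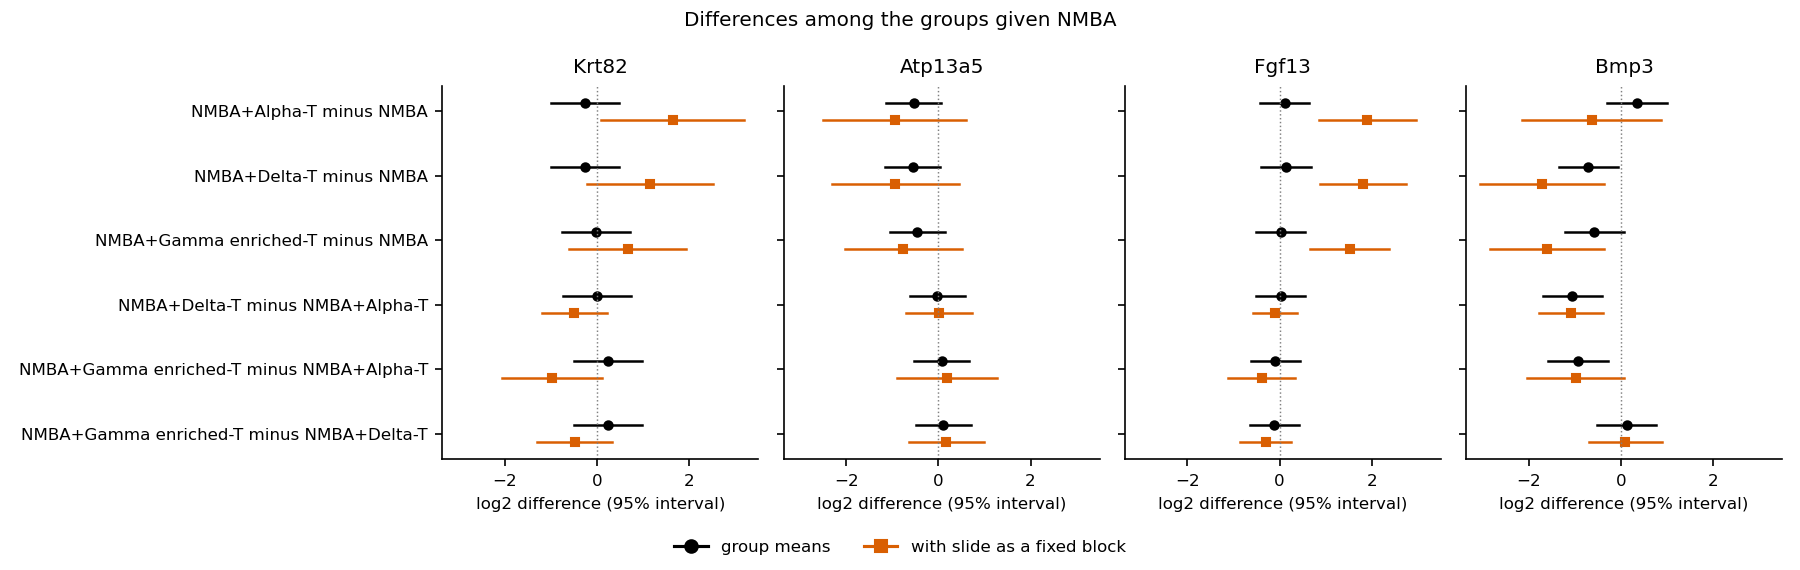
Differences in log2 level (x axis) among the groups given NMBA (y axis) for each gene, with 95% intervals, from group means (circles) and with slide as a fixed block (squares). Without the block the Krt82 and Fgf13 differences from NMBA lie between −0.27 and 0.14, and with it they lie between 0.67 and 1.91.

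The families of the 4 genes were examined next. Because few of all genes were called, a list of this size with 0 or 1 called is near the background and is not read as a result about the family. Of the hair keratins, 14 were listed, 11 were on the array and 7 were tested. None was called for NMBA against Control, where 1.55% of all genes were, and their median difference was 0.14 against 0.05 for all genes tested. Krt31, an acidic hair keratin, fell by 1.47 log2 units in NMBA+Alpha-T against NMBA (adjusted p = 0.0160), and Krt85, a basic hair keratin, fell by 0.84 in NMBA+Delta-T against NMBA (adjusted p = 0.0297). With slide as a block these differences were −0.10 for Krt31 and 0.07 for Krt85, and neither passed. No hair keratin was called in the 3 comparisons of tocopherol groups with Control, where 0.818% of all genes were called for NMBA+Alpha-T, 0.194% for NMBA+Delta-T and 0.632% for NMBA+Gamma enriched-T. These shares rest in part on single rats, and without Control rat 1 the 78 genes called for NMBA+Gamma enriched-T against Control became 697.

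Genes that drive or build the hair shaft were also listed, and 10 of 15 were tested. Gata3, a transcription factor of the inner root sheath of the hair follicle and also of squamous epithelium and T cells, rose by 1.34 ± 0.22 log2 units in NMBA against Control (SE, adjusted p = 0.00211). It rose by 1.25 ± 0.22 in NMBA+Delta-T against Control (adjusted p = 0.0101). No other gene of the list was called in any comparison with Control or NMBA, where 0.194% to 8.95% of all genes were. Gata3 with slide as a block stood at 1.13 for NMBA against Control (adjusted p = 0.0409) and no longer passed for NMBA+Delta-T. Shh and Lhx2, a follicle signal and a follicle stem cell factor, were well above background on 0 arrays. Of the same list, Foxn1, Msx1, Dlx3, Gata3, Padi3 and S100a3 were so on 25 arrays. Msx2 and Lef1 were so on 17, Lgr5 on 16 and Dsg4 on 6.

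Of 23 epithelial keratins listed, 19 were tested, none was called against Control, where 0.194% to 1.55% of all genes were, and 4 were called against NMBA, where 2.49% to 8.95% of all genes were. Krt5, a basal keratin, fell by 0.58 in NMBA+Alpha-T against NMBA (adjusted p = 0.0331) and Krt4, a keratin of the layers above, by 0.69 in NMBA+Delta-T against NMBA (adjusted p = 0.0283). In NMBA+Gamma enriched-T against NMBA, Krt4 fell by 0.81 (adjusted p = 0.00383), its partner Krt13 by 0.81 (adjusted p = 0.0109) and the basal keratin Krt14 by 0.74 (adjusted p = 0.00978). With slide as a block these 5 differences lay between −0.56 and 0.01 and none passed.

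All 4 other P5 ATPases were tested and none was called in any comparison with Control or NMBA, where 0.194% to 8.95% of all genes were. Against Control, Atp13a3 differed by 0.51 in NMBA+Alpha-T, 0.36 in NMBA+Delta-T, 0.28 in NMBA+Gamma enriched-T and −0.03 in NMBA. Atp13a4 differed by −0.44, −0.06, −0.23 and −0.18 in the same order. For NMBA against Control, Atp13a1, a pump of the endoplasmic reticulum, differed by 0.06 and Atp13a2, a lysosomal polyamine exporter, by −0.09. Of the genes of polyamine metabolism 12 of 16 were tested and none was called, with a median difference of 0.05 for NMBA against Control, the value of all genes tested. Among them, Srm, which makes spermidine, stood at 0.30 ± 0.20 (SE) and Oaz1, an inhibitor of polyamine synthesis, at 0.06 ± 0.15. Odc1, the first enzyme of polyamine synthesis, was well above background on 0 arrays by its probe.

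The FGF list held 11 homologous factors and ligands, of which 9 were tested, and none was called against Control, as 0.194% to 1.55% of all genes were. Of the other homologous factors, Fgf12 differed from Control by −0.10 in NMBA+Alpha-T, −0.60 in NMBA+Delta-T, −0.98 in NMBA+Gamma enriched-T and −0.27 in NMBA, while Fgf11 and Fgf14 were well above background on 1 array each. The median difference of the list was −0.33 for NMBA against Control. The ligand Fgf5, which ends the growth phase of hair, fell by 1.03 in NMBA+Gamma enriched-T against NMBA (adjusted p = 0.0240) and stood at −0.16 with slide as a block. Its probe was well above background on only 1 of 5 arrays in each of these groups.

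The channels that Fgf13 binds were listed as 14 voltage-gated sodium channel genes, of which 9 were tested. Scn2b, an accessory subunit, fell by 1.03 in NMBA+Gamma enriched-T against NMBA (adjusted p = 0.00904), stood at 0.13 with slide as a block, and was the only one called against NMBA or Control, where 0.194% to 8.95% of all genes were. The median of the 9 was −0.58 for NMBA against Control, with 2 of 9 above 0. Of the receptors and feedback genes of FGF signalling, 10 were tested, none was called, and their median was 0.02 for NMBA against Control. The receptor Fgfr2 stood at −0.02 ± 0.15 and the feedback phosphatase Dusp6 at 0.15 ± 0.21 (SE).

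The list of BMP, GDF and activin ligands had 13 of 18 genes tested, with a median of −0.21 for NMBA against Control and 4 of 13 above 0. None was called in that comparison, where 1.55% of all genes were. Among the 13 were Bmp1, which is a protease despite its name, and Inha, a subunit of inhibin. Bmp8a, a close relative of Bmp7, was lower with each tocopherol. It fell by 1.34 ± 0.21 in NMBA+Alpha-T (SE, adjusted p = 0.00283), by 1.03 ± 0.21 in NMBA+Delta-T (adjusted p = 0.0225) and by 0.70 ± 0.21 in NMBA+Gamma enriched-T (adjusted p = 0.0428), each against NMBA. Of all genes tested, 3.82%, 2.49% and 8.95% were called in these comparisons, in the same order. Against Control, Bmp8a fell by 1.17 in NMBA+Alpha-T (adjusted p = 0.0111), where 0.818% of all genes were called. With slide as a block it stood at −0.70 and did not pass. Its differences from NMBA with slide as a block were −0.99, −0.71 and −0.42 and none passed. Gdf15, a stress-induced ligand, fell by 0.58 in NMBA+Gamma enriched-T against NMBA (adjusted p = 0.0419), and under the slide block stood at −0.54 and did not pass.

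Bmpr2, the type II receptor, rose by 0.73 in NMBA+Alpha-T against NMBA (adjusted p = 0.0326) and was the only one of 8 receptors called, with 0.20 under the slide block. None of 13 BMP inhibitors and none of 12 signal transducers and targets was called, in comparisons that called 0.194% to 8.95% of all genes. The inhibitors had a median of −0.32 for NMBA against Control, with 1 of 13 above 0, and the secreted inhibitor Grem1 stood at −0.32 ± 0.36 (SE). The transducers and targets had a median of −0.02, with the homeobox gene Dlx3 at 0.33 ± 0.13 and the direct BMP target Id2 at −0.03 ± 0.19.

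**Figure D3:**
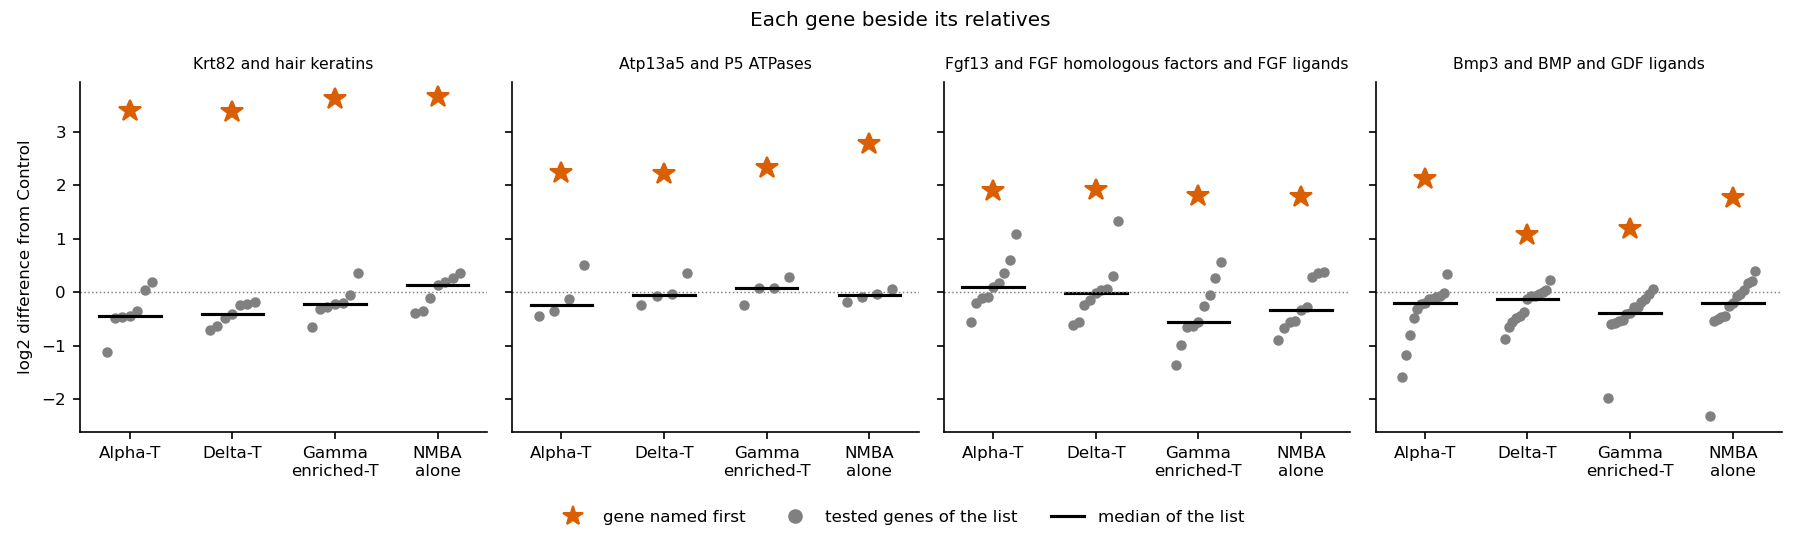
Difference from Control in log2 level (y axis) in each group given NMBA (x axis) for each gene (star), the tested genes of its family list (grey points) and the list's median (bar). Each star lies above all points of its family and was chosen on these differences, so its place is a description, and the list medians for NMBA alone lie between −0.33 and 0.14.

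The genes most like each of the 4 were named by Pearson r of log2 level over the 25 rats, with provisional symbols and the other 3 genes of the set left out. Each point is 1 array, and the gap between Control and the other groups enters every r, so the r of deviations from group means is given beside it. Gip, the gut hormone known as an incretin, was the most like Krt82 (r = 0.97, deviations 0.80). Its level was −2.90 ± 0.62 in NMBA+Alpha-T, −2.79 ± 0.57 in NMBA+Delta-T, −2.47 ± 0.40 in NMBA+Gamma enriched-T, −1.91 ± 0.41 in NMBA and −7.48 ± 0.74 in Control (SD, n = 5 each). Gip was well above background on 2 of 5 Control arrays and Krt82 on 0, so dim Control values enter their r of 0.97. Wfdc3, a protein with WAP domains, followed (0.93, deviations 0.67), and then Tnfrsf18, a co-stimulatory receptor of T cells (0.89, deviations 0.56).

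For Atp13a5 the most like were Klk1c8, a kallikrein (0.90, deviations 0.62), Ccdc68 (0.88, deviations 0.71) and Gip (0.88). Gip and Atp13a5 deviated from their group means with an r of −0.07, so their likeness lay in the group means. For Fgf13 they were Gip (0.89, deviations 0.46), the membrane protease gene Hpn (0.88, deviations 0.62) and Dglucy, a D-glutamate cyclase (0.80, deviations 0.50). Bmp3 had the lowest values, with the splicing factor Srek1 at 0.78 (deviations 0.59) and the mitochondrial folate enzymes Shmt2 at 0.77 (deviations 0.47) and Mthfd2 at 0.75 (deviations 0.58).

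Among themselves the 4 genes were alike over groups and unalike within them. Over the 25 rats r was 0.86 for Krt82 and Atp13a5, 0.87 for Krt82 and Fgf13 and 0.75 for Atp13a5 and Fgf13. Bmp3 had an r of 0.64 with Krt82, 0.69 with Atp13a5 and 0.58 with Fgf13. The r of deviations from group means was 0.08, 0.29 and −0.20 for the first 3 pairs, and −0.12, 0.12 and −0.23 for the pairs with Bmp3. A rat high in 1 of these genes for its group was therefore not regularly high in another.

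**Figure D4:**
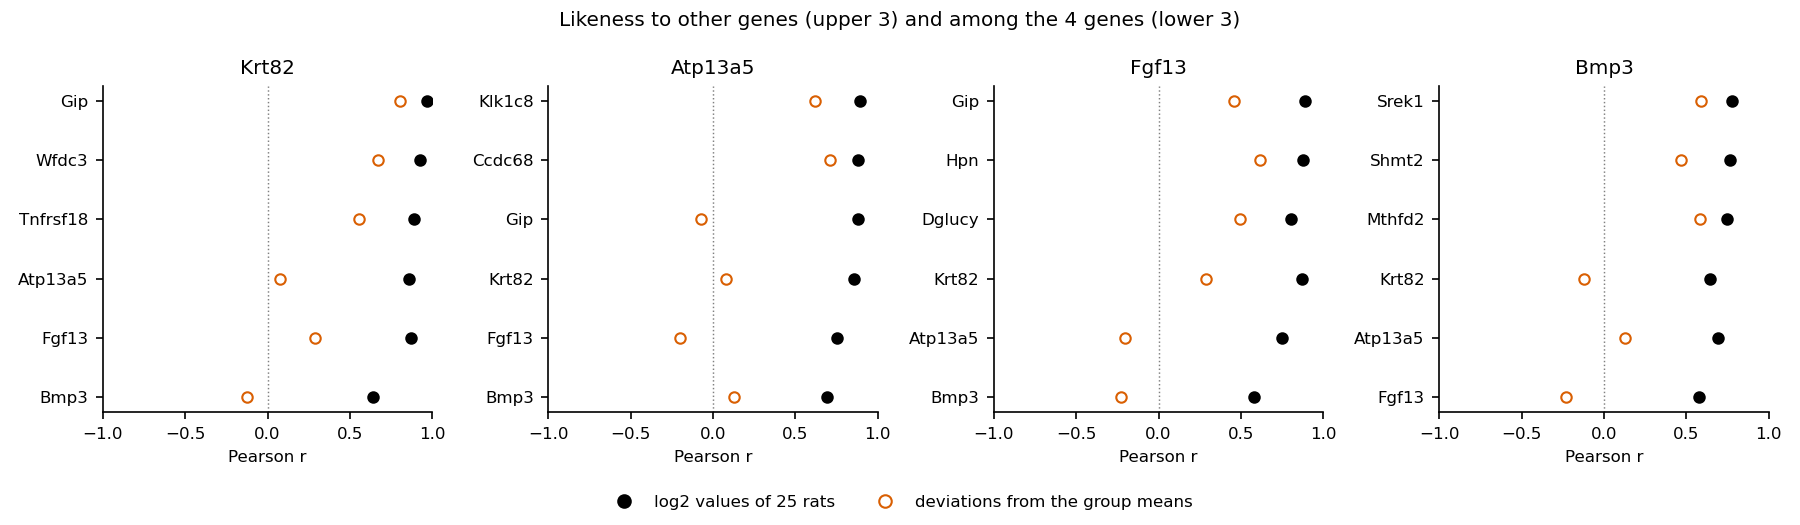
Pearson r over 25 rats (x axis) between each gene and the 3 genes most like it (upper rows) and the other 3 of the set (lower rows), for log2 levels (filled) and for deviations from group means (open). Among the 4 genes r of levels lies between 0.58 and 0.87, and r of deviations between −0.23 and 0.29.

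Markers of the cell types that the sample could hold were set beside these values, since in whole tissue RNA fewer cells of a type and less RNA per cell cannot be told apart. All 9 squamous markers on the array were tested. Their summed signal lay 6.62 to 7.85 log2 units above the 75th percentile over the 25 rats, and the 12 muscle markers summed to 6.10 to 7.42. Against NMBA, 1 of the 9 fell in NMBA+Alpha-T (Krt5), 1 in NMBA+Delta-T (Krt4) and 6 in NMBA+Gamma enriched-T, where 2.52%, 2.02% and 7.36% of all genes fell. With slide as a block none of these 8 differences passed, and they lay between −0.56 for Krt5 and 0.24 for Sprr3 in NMBA+Gamma enriched-T. Over the 25 rats, deviations of Krt82 had an r of 0.55 with those of the squamous list and 0.17 with those of the epithelial keratins. In the same order r was 0.09 and 0.61 for Atp13a5, 0.17 and 0.001 for Fgf13, and −0.56 and −0.38 for Bmp3. The lists share Krt4, Krt5, Krt13 and Krt14, and the 4 genes had no common direction with them. The part of these markers in the levels of the 4 genes was not tested.

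T and NK cell markers moved with NMBA alone. Of 12 markers 11 were tested, and 7 of them rose in NMBA against Control, as 1.3% of all genes did, among them Cd3d by 2.24 (adjusted p = 0.00976) and Gzmb by 2.34 (adjusted p = 0.00658), while Trat1 was well above background on 0 arrays. Under the slide block Cd2 (adjusted p = 0.0234) and Cd8b (adjusted p = 0.0454) still passed and the other 5 did not, among them Cd3d at 1.87 (adjusted p = 0.0994) and Gzmb at 2.14 (adjusted p = 0.0671). The summed marker signal was −0.26 to 0.45 in NMBA+Alpha-T, −0.60 to 0.58 in NMBA+Delta-T, −0.95 to 0.29 in NMBA+Gamma enriched-T, 0.36 to 2.13 in NMBA and −0.66 to 0.35 in Control. The ranges of the tocopherol groups overlapped that of Control. The NMBA range began just above the highest Control rat, at 0.362 against 0.353, and overlapped those of NMBA+Alpha-T and NMBA+Delta-T. Against NMBA, 6 of the 11 markers fell in NMBA+Alpha-T, 7 in NMBA+Delta-T and 8 in NMBA+Gamma enriched-T. Of all genes, 2.52%, 2.02% and 7.36% fell in these comparisons, and with slide as a block no gene was called lower. Deviations of the 4 genes had an r between −0.26 and 0.17 with those of this list, and its part in their levels was not tested.

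The fibroblast markers had a median difference from Control below 0 in each group given NMBA. Of 10 listed, 9 were tested and none was called against Control, where 0.194% to 1.55% of all genes were. In NMBA all 9 stood below Control, with a median difference of −0.52 against 0.05 for all genes tested. Their summed signal was 5.32 to 6.38 in NMBA+Alpha-T, 5.52 to 6.002 in NMBA+Delta-T, 4.72 to 5.83 in NMBA+Gamma enriched-T, 5.19 to 6.19 in NMBA and 5.89 to 6.54 in Control. By the mean deviation of the list, the highest rat stood at 0.18 in NMBA+Delta-T, 0.22 in NMBA+Gamma enriched-T and 0.23 in NMBA, each below the lowest Control rat at 0.29, while NMBA+Alpha-T overlapped Control. By summed signal NMBA+Delta-T and NMBA overlapped Control as well, so their separation depended on the score. Deviations of the 4 genes from their group means had an r of −0.41 (Krt82), −0.24 (Atp13a5), −0.085 (Fgf13) and −0.18 (Bmp3) with those of this list. Dcn, a collagen-binding proteoglycan, fell by 0.74 in NMBA+Gamma enriched-T against NMBA (limma adjusted p = 0.0358), where 7.36% of all genes fell. With slide as a block Dcn stood at −0.17. The part of fibroblasts in the levels of the 4 genes was not tested.

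Of 10 macrophage and dendritic cell markers tested none was called against Control, where 0.194% to 1.55% of all genes were. Aif1 and C1qa, both macrophage genes, fell by 1.02 (limma adjusted p = 0.0152) and 0.90 (limma adjusted p = 0.0467) in NMBA+Gamma enriched-T against NMBA. In that comparison 7.36% of all genes fell, and neither gene passed with slide as a block. None of 6 endothelial and 4 adipocyte markers was called against Control or NMBA, where 0.194% to 8.95% of all genes were. Their median differences for NMBA against Control were −0.31 and −0.91.

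Bmp3 ran against most lists from rat to rat. Its deviations had an r of −0.66 with the nerve and Schwann cell markers, −0.65 with the muscle markers and −0.65 with the endocrine markers over the 25 rats. This was not particular to these lists, since r was −0.63 with the sodium channels, −0.57 with the FGF list and −0.56 with the squamous markers. Only the P5 ATPases (0.09) and the BMP and activin receptors (0.25) had an r above 0 with Bmp3. The summed nerve markers lay at 2.50 to 3.71 in NMBA+Alpha-T, 2.86 to 3.41 in NMBA+Delta-T, 2.72 to 3.37 in NMBA+Gamma enriched-T, 3.08 to 3.43 in NMBA and 3.20 to 3.68 in Control, and none of the 12 tested was called in these comparisons. None of the 12 muscle and 5 endocrine markers was called either. Against Control or NMBA 0.194% to 8.95% of all genes were called, so lists of this size with 0 called are near the background. Chga and Neurod1, which define endocrine cells, were well above background on 1 array each. Fgf13 had its largest r, 0.45, with the muscle markers. The part of these cell types was not tested.

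**Figure D5:**
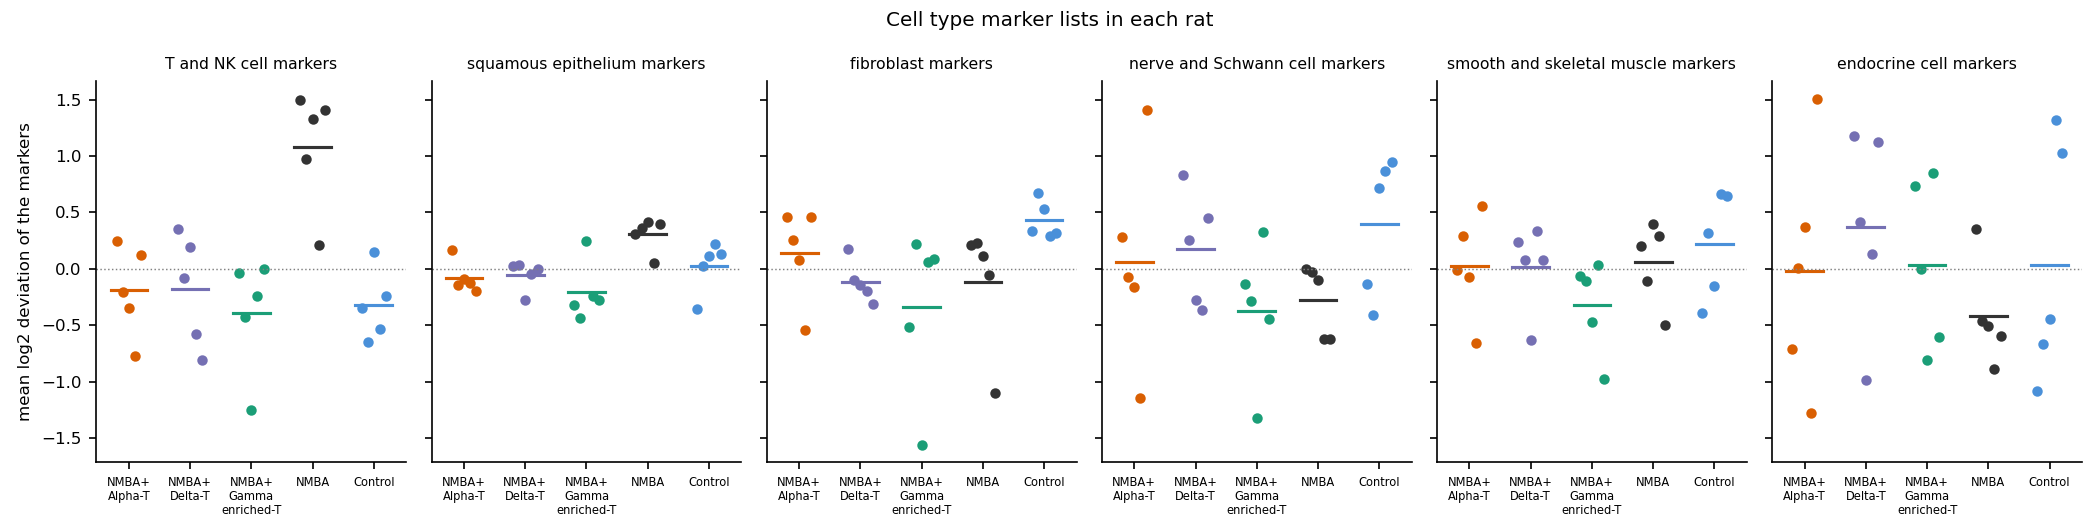
Mean deviation of each marker list's genes from their average over all rats (y axis, log2 units) in each rat (points) and group (bar, mean) by group (x axis). NMBA has the highest mean for the T and NK cell list, 1.08 against −0.32 in Control, and its range overlaps those of NMBA+Alpha-T and NMBA+Delta-T. By this score every NMBA+Delta-T, NMBA+Gamma enriched-T and NMBA rat lies below every Control rat for the fibroblast list. By summed signal NMBA+Delta-T and NMBA overlap Control for that list. The nerve, muscle and endocrine lists overlap between all groups.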

How the data were processed

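Total RNA of rat esophageal epithelium was measured on 25 arrays, 1 per rat. The deposited scanner files hold fluorescence intensity, background-subtracted and detrended per the file headers. Those headers give the software as Agilent Feature Extraction 11.5.1.1, and the submitters' processing notes give 10.7. The deposited value table is on a log2 scale with each array's 75th percentile near 0, and its columns followed the scanner values (r = 1). It served as an alternative.

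Non-uniform and population outlier spots were dropped, log2 processed signals were averaged per probe, and each array's 75th percentile was subtracted. Of 30367 probes, 18355 matched 1 symbol through RefSeq (GRCr8). Probes well above background on at least 5 arrays were kept, and each gene took its brightest kept probe. Group means were fitted in R 4.3.3 with limma 3.58.1 to all arrays, two-sided, with Benjamini-Hochberg adjustment over 12343 genes at 0.05, and were tested on simulated data. Called means past that threshold.

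A list's summed level is the log2 of its members' summed linear signal. The 4 genes, the lists and the motifs were chosen with earlier results of these data known. The other named genes are those called in a list (up to 4), the 2 brightest of a list with none called, all genes behind a count of 5 or fewer, and the 3 most like each gene. The value of 1 gene that this rule names is not reported here. The files hold no mean signal column, so normexp (offset 50) used median signals. The number of arrays, not depth, limits precision.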

Additional observations from a re-analysis of the deposited data

Results flagged for a closer look

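In 25 groups of 5 rats (5 probes by 5 groups), 1 value stood far from the others of its group, where chance flags about 1 in 20 groups. Atp13a5 in NMBA+Alpha-T rat 2 had a log2 level of −5.53, against −4.50 to −4.16 in the other rats of that group, and the gap was 0.747 of the group's range. Without this rat the difference of NMBA+Alpha-T from NMBA was −0.29 in place of −0.53, and neither passed the threshold.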

How the results depend on the processing

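No difference of the 4 genes among the groups given NMBA was called under any of the 464 alternative fits (lowest adjusted p 0.0607), and those from Control kept their direction in all. Of the non-leave-out alternatives among groups given NMBA, 198 kept the direction and 26 turned it. Many of the 198 could not have turned. Fitting the compared groups alone, the replicate block and no filter on dim probes leave the members' differences unchanged, also those from Control. Averaging a gene's probes likewise leaves Krt82, Atp13a5 and Bmp3 unchanged, which have 1 probe each. With slide as a fixed block, differences from NMBA turned to 1.64, 1.15 and 0.67 for Krt82 (alpha, delta, gamma-enriched) and −0.63 for Bmp3 in alpha. Delta against alpha turned to 0.015 for Atp13a5 and −0.094 for Fgf13 (also within a slide), and for Krt82 gamma-enriched turned to −0.98 against alpha and −0.48 against delta (−0.48 within a slide too). The block also moved differences from Control to 1.24, 0.17 and 0.27 for Bmp3 and 3.33, 3.23 and 2.94 for Fgf13 (alpha, delta, gamma-enriched), and to 4.96 and 4.47 for Krt82 in alpha and delta, where no Control array was well above background for Krt82, so that its differences from Control have no exact size. As a random block, gamma-enriched against NMBA stood at −0.023 for Fgf13 and 0.018 for Krt82, and delta against alpha at 0.024 for Krt82. Normexp gave differences from Control, for alpha, delta, gamma-enriched and NMBA, of 1.28, 1.23, 1.27 and 1.41 for Krt82, 1.14, 1.07, 1.04 and 1.44 for Atp13a5 and 0.93, 0.34, 0.31 and 0.75 for Bmp3, with 1.49 and 1.38 for Fgf13 in delta and gamma-enriched. It turned gamma-enriched against alpha to −0.094 for Atp13a5 and −0.0094 for Krt82, against delta to −0.028 for Atp13a5 and −0.025 for Bmp3, and delta against alpha to −0.0049 for Fgf13. Quantile normalization gave 0.10 for Krt82 in gamma-enriched against NMBA, and for delta against alpha 0.018 for Krt82 and −0.029 for Fgf13. The deposited table gave −0.0035 for Fgf13 in gamma-enriched against NMBA. The mean of both Fgf13 probes gave −0.058 for delta against alpha, 0.055 for gamma-enriched against alpha and 0.11 against delta. Leaving out 1 rat at a time, delta against alpha ran over −0.27 to 0.078 for Atp13a5, −0.039 to 0.10 for Fgf13 and −0.19 to 0.18 for Krt82. Gamma-enriched against NMBA ran over −0.067 to 0.15 for Fgf13 and −0.21 to 0.20 for Krt82, against alpha over −0.16 to 0.21 for Atp13a5 and −0.17 to 0.033 for Fgf13, and against delta over −0.040 to 0.28 for Bmp3 and −0.19 to 0.0065 for Fgf13. The likeness of Gip to Atp13a5 turned to −0.072 on deviations, and 21 other likeness values moved.

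Counts of genes called, over all genes, were 471 for alpha, 307 for delta and 8.95% of genes for gamma-enriched against NMBA, 200 for gamma-enriched against alpha and 191 for NMBA against Control, with 0.818% of genes for alpha, 24 for delta and 78 for gamma-enriched against Control. Without the filter on dim probes the first 3 were 2141, 961 and 3321. Fitted on the compared groups alone they were 114 (alpha), 71 (delta) and 95 (NMBA against Control). With slide as a fixed block they were 1, 1, 1, 0 and 62 in the order above, as a random block 800, 742, 1805 and 440 for the first 4, and within slide 3 NMBA against Control gave 31. Normexp gave 63 for gamma-enriched against alpha. Against Control, in the order alpha, delta, gamma-enriched, the slide block gave 4 each, the random block 312, 51 and 308, and normexp 186, 57 and 30, while fitting the compared groups alone gave 6 in alpha and 19 in gamma-enriched. Leaving out 1 rat gave 191 to 454 (lowest without NMBA rat 3), 13 to 566 (without NMBA rats 3 and 4), 546 to 1588 (lowest without NMBA rat 1), 24 to 556 (without NMBA+Alpha-T rats 5 and 4) and 96 to 297 (without NMBA rats 5 and 4). Against Control it gave 25 to 111 for alpha (lowest without Control rat 4), 15 to 81 for delta (without NMBA+Delta-T rat 5 or Control rat 4, and without Control rat 1) and 25 to 697 for gamma-enriched (without Control rats 4 and 1), and the cause was not tested.

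Rat numbers did not pair the rats: over 50 pairs of groups and numbers, r of deviations ran from −0.584 to 0.529, with 12 above 0.1. With the replicate block the counts were 310 (alpha), 161 (delta) and 111 (gamma-enriched against alpha), with 52 and 34 for alpha and gamma-enriched against Control, and the differences of the 4 genes were the same by construction. Signal over background limits Krt82, Atp13a5 and Bmp3 in Control, where 0, 2 and 3 of 5 arrays were well above it.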
